A study of Homo sapiens with 8 samples.

Results

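The genes described here are 42 that act in mitosis, from the cyclins and kinases that start it to the proteins of the spindle, the kinetochores and cytokinesis. They were chosen by symbol from a fixed list of names, which was drawn up with earlier results of these data known. All 42 were found among the 60664 genes of the deposited table. Every one also passed the filter on low values (FPKM, reads scaled by exon length and library size, of 1 or more in at least 2 libraries), as did 14899 genes in all. RNA-seq was made from THP-1 cells, an established human line of acute monocytic leukemia with the genotype labelled WT, and from a THP-1 line made resistant to decitabine (DAC) by long exposure to the drug. Both lines received either DMSO, the solvent, or 1 µM DAC for 6 days, which gave 4 groups of 2 libraries each. The groups are called parental DMSO, parental DAC, DAC-resistant DMSO and DAC-resistant DAC. DAC is a cytidine analog that is built into DNA and traps DNA methyltransferases, so that methylation is lost as cells divide. Only 1 DAC-resistant line was sequenced, so resistance and other properties of that line cannot be told apart. The labels call the libraries of a group biological replicates and do not say whether they came from separate cultures, so the p-values measure the spread between these libraries.

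Entry into mitosis is driven by CDK1 bound to cyclin A or B, which the CDC25 phosphatases switch on and which the transcription factor FOXM1 helps to supply. The Aurora and Polo-like kinases then build the spindle, the kinetochores tie chromosomes to it, and the checkpoint kinases and MAD2 hold the anaphase-promoting complex (APC/C) back until every chromosome is attached. Many of these genes share promoter elements: the cell cycle genes homology region (CHR), through which the DREAM and MuvB complexes act, and CCAAT boxes, which bind NF-Y.

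Promoter windows from RefSeq (GRCh38.p14, 250 bases before to 50 bases after each start) were matched to 35 of the 42 members, with 45 windows, and to 35116 windows in all. FOXM1, TPX2, BUB3, UBE2C, BIRC5, TTK and AURKA had no match. The CHR was searched as TTTGAA or TTTAAA on both strands (the second reads the same on both). It was found in 35 of the 45 member windows (77.8%) against 24% of all windows, and in 31 of the 35 members. The exceptions were BUB1, CCNA2, AURKB and SPC24. Of these forms, TTTGAA was in 28 member windows (62.2%, against 15.2% of all) and TTTAAA in 14 (31.1%, against 12.2%). The letters CCAAT, on either strand, were in 34 member windows (75.6%, against 34.6%), and 20 (44.4%, against 10.8%) held 2 or more. An E2F site, searched as TTCCCGC or TTGGCGC on both strands, was in 9 member windows (20%, against 9.23%). A match of letters is a description of the window and not evidence of binding.

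The 150 bases before the start are shown for HMMR, CCNB2, CENPE and CDC20, which lie at the extremes of the DAC responses described below, with capitals marking the CHR and CCAAT letters. HMMR, at chr5:163460482-163460631 on the plus strand, CCNB2, at chr15:59104996-59105145 on the plus strand, and CDC20, at chr1:43358831-43358980 on the plus strand, carry both elements. CENPE, at chr4:103198344-103198493 on the minus strand, carries 2 adjoining CHR matches and no CCAAT letters in this stretch.
HMMR: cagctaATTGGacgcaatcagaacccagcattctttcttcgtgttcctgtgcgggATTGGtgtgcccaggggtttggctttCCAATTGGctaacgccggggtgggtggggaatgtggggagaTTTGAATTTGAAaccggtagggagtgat
CCNB2: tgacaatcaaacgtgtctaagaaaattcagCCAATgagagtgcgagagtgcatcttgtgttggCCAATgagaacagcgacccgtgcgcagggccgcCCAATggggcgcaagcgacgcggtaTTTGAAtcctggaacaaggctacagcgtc
CENPE: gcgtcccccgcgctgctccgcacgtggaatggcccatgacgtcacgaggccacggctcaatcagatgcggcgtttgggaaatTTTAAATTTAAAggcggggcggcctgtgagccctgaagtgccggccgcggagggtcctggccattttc
CDC20: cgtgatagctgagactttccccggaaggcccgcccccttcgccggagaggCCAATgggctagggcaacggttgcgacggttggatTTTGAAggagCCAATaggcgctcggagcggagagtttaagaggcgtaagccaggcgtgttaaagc

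Reads on genes, estimated from the steps of the deposited values, came to between 28717841 and 33416782 per library, and the parental DAC libraries were the smallest. In each library this estimate exceeded the total by which the values were scaled (27480502 to 31916835 reads), so it is approximate. Reads behind a member in a library ranged from 77 for NUSAP1 to 22850 for TOP2A. Replicates of a group differed by more than counting alone would give (chi-square of 3.84 to 4.12 per gene). Of 10 monocytic leukemia markers, 8 stood above 1 FPKM in all libraries. Their summed level was 391 and 398 FPKM in parental DMSO cells, 605 and 610 in parental DAC cells, and between 283 and 311 in the DAC-resistant libraries. CD14, a monocyte surface receptor, was at 1.45 and 1.58 FPKM in parental DMSO cells and at 19.0 and 20.8 with DAC. Among 12 markers of other cells, 8 stayed under 1 FPKM in all libraries. Their sum was 10.3 and 10.8 FPKM in parental DMSO cells, 25.01 and 26.1 in parental DAC cells and between 6.75 and 12.4 in the DAC-resistant libraries, and NKG7, a granule gene of cytotoxic cells, went from 5.14 and 6.19 to 16.4 and 16.9 with DAC in parental cells. In parental cells both DAC libraries lay above both DMSO libraries for 9 of the 10 monocytic markers, the exception being CD33 (9.92 and 9.74 FPKM with DMSO against 8.10 and 7.61 with DAC), and for 6 of the 12 others. Both marker sums thus moved in the group where the mitosis genes were lowest, and their part in the results below was not tested.

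The mitosis genes were lowest in parental cells with DAC and highest in DAC-resistant cells. Their summed level was 884 and 897 FPKM in parental DMSO cells and 810 and 814 in parental DAC cells. It was 1078 and 1066 FPKM in DAC-resistant DMSO cells and 1079 and 1091 in DAC-resistant DAC cells. The median member stood at 17.2 and 17.6 FPKM, at 14.4 and 14.2, at 18.8 and 20.2, and at 21.8 and 21.6 in the same order of groups. By the median no group overlapped another, whereas by the sum the DAC-resistant groups adjoined each other. In bulk RNA, fewer dividing cells and less RNA per dividing cell cannot be told apart.

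**Figure D1:**
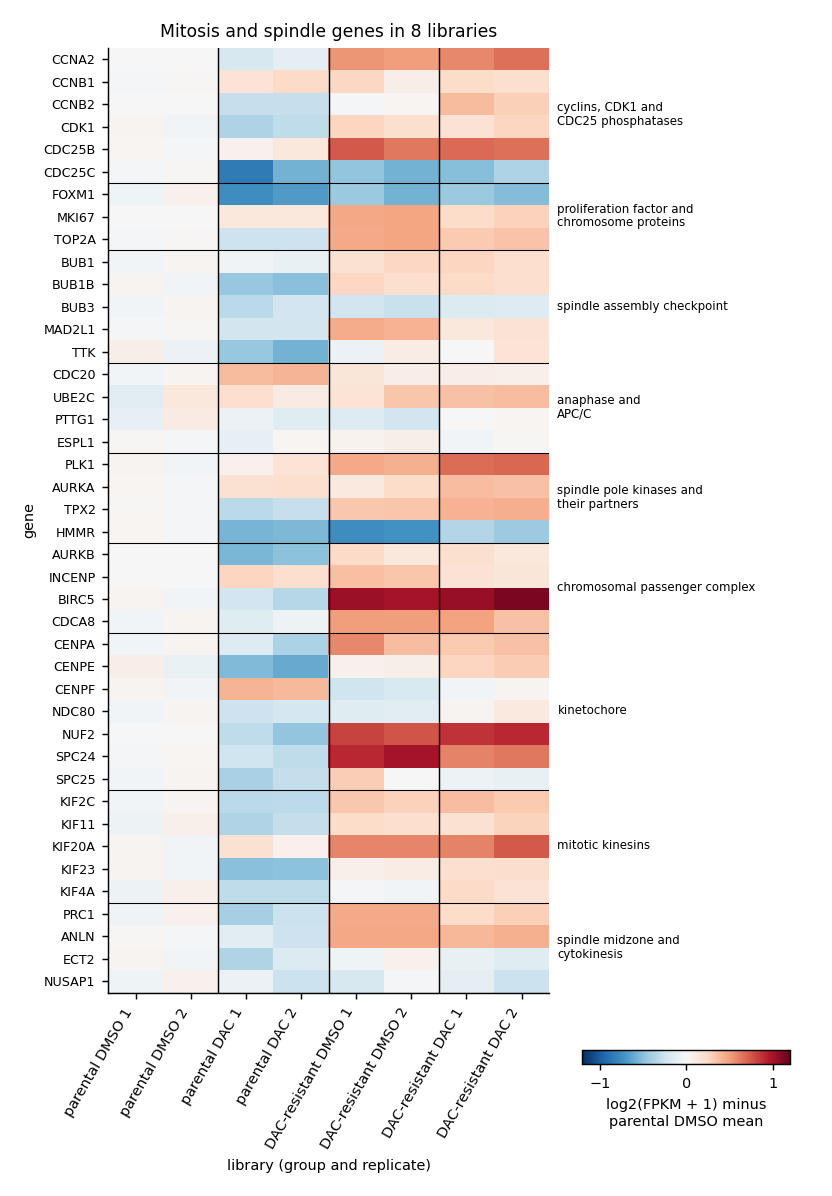
Each row is 1 of the 42 genes, grouped by role, and each column is 1 of the 8 libraries; color gives log2(FPKM + 1) minus the mean of the parental DMSO libraries. The parental DAC columns are mostly blue, the DAC-resistant columns mostly red, and BIRC5, NUF2 and SPC24 are the reddest rows.

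The first comparison asks what 6 days of DAC did in parental cells. Of the 42 members, 27 fell and 6 rose at an adjusted p under 0.05 (limma, adjusted over all 14899 genes), and 9 did not pass. Over all genes tested, 24.1% fell and 33.6% rose by the same rule. The median log2 fold change of the members was -0.26, beside 0.06 for all genes. The changes were small in size: by a size rule (log2 fold change of 1 or more with an unadjusted p no higher than 0.01), limma called 0 members in either direction, against 6.66% of all genes higher and 2.64% lower. In limma 33 of the 42 members and 9313 of all 14899 genes had an unadjusted p under 0.05. Replicates of DMSO and DAC did not overlap for 39 members, 30 lower and 9 higher, where 34.5% and 44.9% of all genes did not overlap in those directions.

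FOXM1 (ENSG00000111206, chr12:2857680-2877174 on hg38), the transcription factor that drives many genes of the G2 and M phases, was at 18.3 and 19.6 FPKM with DMSO and at 10.9 and 11.4 with DAC. Its mean FPKM fell by 41.0%, and the log2 fold change, taken on FPKM + 1, was -0.71 (SE 0.060, limma adjusted p = 9.8e-05). CDC25C, the phosphatase that activates CDK1 at mitotic entry, was at 7.97 and 8.14 FPKM and at 4.02 and 5.09 with DAC. Its log2 fold change on that scale was the same (-0.71, SE 0.099, adjusted p = 0.0010), while its mean FPKM fell by 43.4%. Part of the exons of both genes is overlapped on the other strand (15.9% of FOXM1 by ITFG2, 8.8% of CDC25C by FAM53C), and the strand setting of the counting is not given in the sources used here. CENPE, the kinesin that carries chromosomes to the spindle equator, was at 8.81 and 7.79 FPKM and at 5.42 and 5.09 with DAC (log2 fold change -0.57, SE 0.063, adjusted p = 0.00033). In these 3 genes every DAC library lay below every DMSO library.

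The falls ran through most roles. CDK1, the mitotic kinase, was at 29.6 and 28.2 FPKM with DMSO and at 22.1 and 23.2 with DAC (log2 fold change -0.34, SE 0.047, adjusted p = 0.0010), and cyclins CCNB2 (-0.28) and CCNA2 (-0.15) fell with it. In the spindle assembly checkpoint, BUB1B (-0.48), TTK (-0.51), BUB3 (-0.28) and MAD2L1 (-0.22) fell. BUB1, the checkpoint kinase at the kinetochore, was at 17.9 and 18.7 FPKM and at 17.7 and 17.2 with DAC, and its log2 fold change of -0.06 did not pass (SE 0.042, adjusted p = 0.23).

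AURKB, the kinase of the chromosomal passenger complex, was at 20.21 and 20.18 FPKM with DMSO and at 13.5 and 14.1 with DAC (log2 fold change -0.52, SE 0.044, adjusted p = 0.00011). BIRC5 (survivin, ENSG00000089685, chr17:78214186-78225636), which brings AURKB to centromeres, was at 24.0 and 23.0 FPKM and at 19.9 and 18.2 (-0.29, SE 0.049, adjusted p = 0.0024). CDCA8 (borealin), which binds survivin in the same complex, did not pass at -0.10. Of the 5 mitotic kinesins 4 fell: KIF23 (-0.50), KIF11 (-0.33), KIF2C (-0.32) and KIF4A (-0.31). KIF20A, at 0.12, did not pass. Of the 7 kinetochore genes 6 fell, among them NUF2 (-0.39), SPC25 (-0.34), SPC24 (-0.27), CENPA (-0.27) and NDC80 (-0.23). TOP2A, the topoisomerase that untangles sister chromatids, was at 81.8 and 83.4 FPKM and at 69.6 and 69.1 with DAC (-0.25, SE 0.023, adjusted p = 0.00016).

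At the spindle poles, HMMR (ENSG00000072571, chr5:163460203-163491941), a microtubule-binding protein, was at 31.5 and 30.6 FPKM with DMSO and at 20.8 and 21.1 with DAC (log2 fold change -0.55, SE 0.037, adjusted p = 3.7e-05), and TPX2, which activates AURKA, fell by 0.30 on the log2 scale. At the midzone, PRC1 (-0.33), ECT2 (-0.26) and ANLN (-0.19) fell. PRC1 shares 61.9% of its exon length with other annotated genes and stood between 1.95 and 4.33 FPKM. NUSAP1 shares 86.8% and stood near 1 FPKM, so that the levels of PRC1 and NUSAP1 are uncertain. Smaller shares are overlapped in other members, among them PLK1 (12.8%), BUB1B (10.2%), CCNA2 (9.24%) and CENPA (7.08%). Of the 27 falls, 22 kept the call under the alternatives run and without each library. CCNA2, CENPA, SPC25, ANLN and ECT2 kept their direction and lost the call without parental DMSO replicate 1 (adjusted p between 0.053 and 0.10) and, apart from ANLN, without 1 or more other parental libraries. With all libraries kept, CENPA, SPC25 and ECT2 lost it with no filter on low values (adjusted p between 0.051 and 0.097), and CENPA and ECT2 when only the parental libraries were fitted (0.064 and 0.055).

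Against these falls stood 6 rises. CENPF, a large kinetochore protein made in G2, was at 23.1 and 21.9 FPKM with DMSO and at 30.1 and 29.7 with DAC (log2 fold change 0.40, SE 0.041, adjusted p = 0.00025). CDC20, the activator of the APC/C that the checkpoint holds back, was at 75.3 and 79.0 FPKM and at 100.5 and 102.9 with DAC (0.39, SE 0.034, adjusted p = 0.00011). INCENP, the backbone of the chromosomal passenger complex, was at 12.03 and 12.13 FPKM and at 14.7 and 14.1 (0.23, SE 0.035, adjusted p = 0.0015), so that within 1 complex INCENP rose while AURKB and BIRC5 fell.

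The other rises were smaller. CCNB1 (cyclin B1) was at 30.3 and 31.1 FPKM with DMSO and at 34.5 and 36.2 with DAC (log2 fold change 0.20, SE 0.058, adjusted p = 0.026). AURKA, the spindle pole kinase, was at 21.1 and 20.5 FPKM and at 23.8 and 24.1 (0.19, SE 0.040, adjusted p = 0.0058). MKI67 (Ki-67), the protein that coats mitotic chromosomes, was at 40.1 and 39.8 FPKM and at 43.6 in both DAC libraries (0.12, SE 0.027, adjusted p = 0.0068). These 3 rises lost the call under quantile normalization and upper-quartile scaling, which moved the median of all genes from 0.06 to -0.05 and -0.03, so only CENPF, CDC20 and INCENP rose under all scalings tried. PLK1, the Polo-like kinase, was at 11.8 and 11.3 FPKM and at 12.04 and 13.1 with DAC, and its log2 fold change of 0.11 did not pass (SE 0.047, adjusted p = 0.087). UBE2C (0.15), CDC25B (0.09), PTTG1 (-0.11), ESPL1 (-0.03) and NUSAP1 (-0.16) did not pass either. UBE2C, AURKA, CCNB2, MKI67, BUB1, BUB3, MAD2L1, CDC20 and AURKB have annotated pseudogenes with which reads could be shared.

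**Figure D2:**
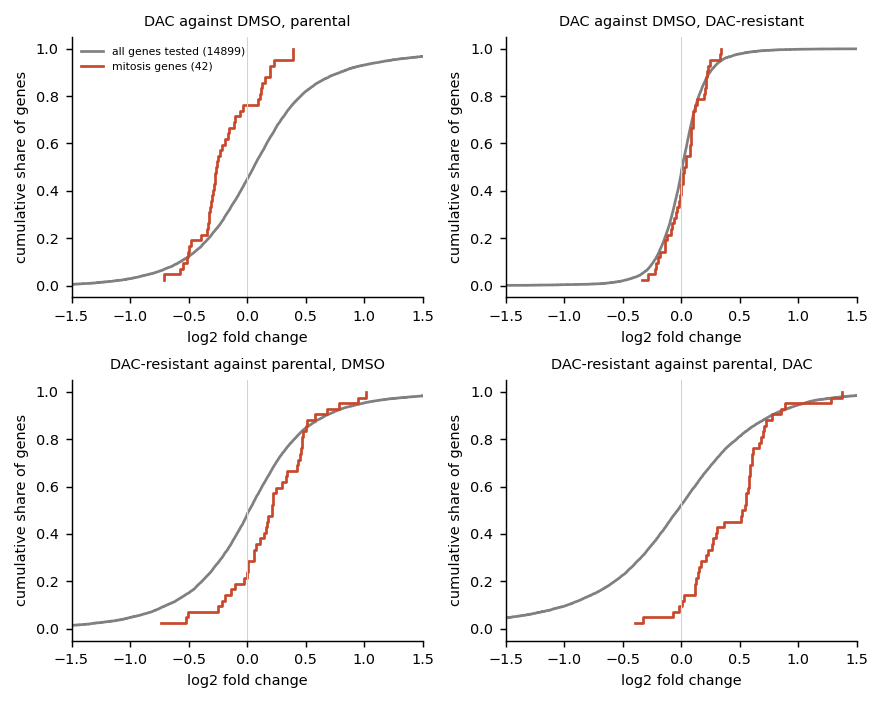
Cumulative share of genes (y axis) by log2 fold change (x axis, tails not drawn) for the 42 mitosis genes and all 14899 genes tested, in 4 comparisons. The mitosis genes lie to the left of all genes with DAC in parental cells (medians -0.26 and 0.06), nearly on them with DAC in DAC-resistant cells (0.03 and 0.01), and to the right in both comparisons of DAC-resistant with parental cells.

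In DAC-resistant cells the same dose and time of DAC gave fewer called members than in parental cells. At an adjusted p under 0.05 in limma, 7 rose and 5 fell of 42 (16.7% and 11.9%), against 5.88% of all genes higher and 5.35% lower. The other 30 did not pass. An unadjusted p under 0.05 was found for 18 of the 42 members and for 4017 of all 14899 genes. The median log2 fold change was 0.03, beside 0.01 for all genes. By the size rule limma called 0 members, against 0.114% of all genes higher and 0.121% lower. The DAC-resistant libraries did not overlap for 17 members higher and 12 lower, where 29.9% and 26.4% of all genes did not. Leaving out any of the 4 DAC-resistant libraries left between 2 and 3 higher and between 2 and 4 lower, and with all libraries kept but no filter on low values 2 were higher and 5 lower.

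HMMR was at 18.2 and 18.4 FPKM in DAC-resistant cells with DMSO and at 24.2 and 22.7 with DAC (log2 fold change 0.34, SE 0.037, limma adjusted p = 0.0040), and it was the 1 member whose call was kept under the alternatives run and without each library. CCNB2, the second B-type cyclin, was at 21.2 and 21.8 FPKM and at 28.1 and 26.3 (0.33, SE 0.038, adjusted p = 0.0050). PLK1 was at 16.2 and 15.8 FPKM and at 19.0 and 19.3 with DAC (0.25, SE 0.047, adjusted p = 0.024). All DAC libraries of these genes lay above both DMSO libraries. KIF4A (0.23), NDC80 (0.21), CENPF (0.21) and AURKA (0.19) rose as well. For AURKA the libraries were at 22.7 and 24.4 FPKM with DMSO and at 27.1 and 26.9 with DAC.

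SPC24, a subunit of the NDC80 complex that holds microtubules, was at 28.5 and 30.3 FPKM with DMSO and at 22.8 and 23.4 with DAC in DAC-resistant cells (log2 fold change -0.33, SE 0.043, adjusted p = 0.0071). MAD2L1 (MAD2), the checkpoint protein that binds CDC20, was at 15.8 and 15.4 FPKM and at 12.4 and 12.8 (-0.28, SE 0.036, adjusted p = 0.0066). MKI67 was at 55.3 and 55.8 FPKM and at 46.8 and 48.6 (-0.22, SE 0.027, adjusted p = 0.0061). INCENP (-0.19) and TOP2A (-0.14, with 113.6 and 115.3 FPKM against 102.8 and 105.3) fell too. All 5 falls lost the call when only the 4 DAC-resistant libraries were fitted, which left 2 rises.

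For several genes named above no change passed the test in DAC-resistant cells. FOXM1 was at 13.6 and 12.4 FPKM with DMSO and at 13.7 and 12.9 with DAC (log2 fold change 0.02, SE 0.060, adjusted p = 0.85). CDK1 was at 34.7 and 33.1 FPKM and at 32.7 and 34.8 (-0.01, adjusted p = 0.96), AURKB at 23.8 and 22.2 and at 23.2 and 22.2 (-0.02, adjusted p = 0.86), and BUB1 at 20.9 and 21.9 and at 22.1 and 21.2 (0.01, adjusted p = 0.89). For each of these the DMSO and DAC libraries overlapped. BIRC5, at 48.9 and 47.8 FPKM and at 49.6 and 52.4, and CCNB1, at 36.7 and 32.5 and at 35.9 and 35.2, did not pass either.

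The difference between the 2 DAC effects was tested as an interaction, and these effects share no library. For 21 members the effect was higher in DAC-resistant than in parental cells and for 4 it was lower (limma adjusted p under 0.05), against 20.9% of all genes higher and 28.4% lower. The median difference was 0.14 on the log2 scale, beside -0.05 for all genes. It was 0.26 under quantile normalization and 0.24 under upper-quartile scaling, and moved to 0.22 without parental DAC replicate 2 and to 0.25 without DAC-resistant DMSO replicate 1. By the size rule limma called 0 members, against 3.46% of all genes higher and 7.16% lower. An unadjusted p under 0.05 was found for 25 of the 42 members and for 8347 of all 14899 genes.

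HMMR differed most, with a log2 fold change of -0.55 in parental and 0.34 in DAC-resistant cells (difference 0.89, SE 0.052, adjusted p = 3.4e-05). CENPE followed, with -0.57 and 0.22 (difference 0.79, SE 0.088, adjusted p = 0.00052), and CDC25C, with -0.71 and 0.08 (0.79, SE 0.14, adjusted p = 0.0038). FOXM1 had -0.71 and 0.02 (0.74, SE 0.084, adjusted p = 0.00058). The cytokinesis kinesin KIF23 (0.63), CCNB2 (0.61), TTK (0.58), KIF4A (0.53) and AURKB (0.50) came next. In the other direction stood CDC20, with 0.39 in parental and -0.04 in DAC-resistant cells (difference -0.43, SE 0.048, adjusted p = 0.00049), INCENP (-0.42), MKI67 (-0.34) and CENPF (-0.19).

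Taking both DAC effects by their calls, 4 members fell in parental and rose in DAC-resistant cells: CCNB2, HMMR, NDC80 and KIF4A. MKI67 and INCENP did the opposite. AURKA and CENPF rose in both lines, and TOP2A, MAD2L1 and SPC24 fell in both. The shares of all genes with these joint calls are not given here, so the counts describe the members alone. AURKA had a log2 fold change of 0.19 in each line (difference 0.00, SE 0.056, adjusted p = 0.96), and SPC24 had -0.27 and -0.33 (difference -0.06, SE 0.061, adjusted p = 0.42). This sorting rests on calls of which, in DAC-resistant cells, only that of HMMR was kept under the alternatives run and without each library, and the parental rises of MKI67 and AURKA lost theirs under 2 scalings, as given above.

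**Figure D3:**
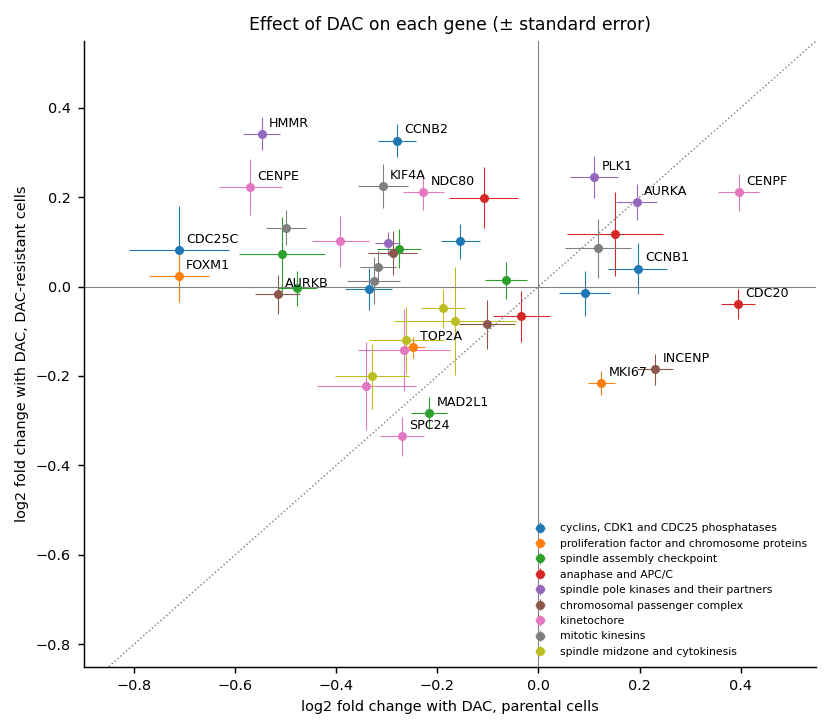
Each point is 1 of the 42 genes, with its log2 fold change with DAC in parental cells (x axis) and in DAC-resistant cells (y axis), bars of 1 standard error, and color for its role; the dotted line marks equal effects. HMMR, CENPE, CDC25C and FOXM1 lie farthest above the line, at differences of 0.74 to 0.89, and CDC20 and INCENP lie farthest below it.

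Compared without drug, DAC-resistant cells had more of most mitosis transcripts than parental cells. This comparison shares the parental DMSO libraries with the DAC effect in parental cells, so the 2 sets of values are not independent. At an adjusted p under 0.05, 25 members were higher and 7 lower (limma), against 31.3% of all genes higher and 26.2% lower, and the median log2 fold change was 0.21, beside 0.02 for all genes. BIRC5 alone passed the size rule, against 4.45% of all genes higher and 4.28% lower. The libraries did not overlap for 28 members higher and 7 lower, where 41.7% and 36.9% of all genes did not. The median fell to 0.11 under quantile normalization and rose to 0.28 on the TPM scale.

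BIRC5 was at 24.0 and 23.0 FPKM in parental DMSO cells and at 48.9 and 47.8 in DAC-resistant DMSO cells, 106% higher (log2 fold change 1.01, SE 0.049, adjusted p = 9.0e-06). It passed the size rule by a narrow margin and no longer did so under quantile normalization (0.90) and upper-quartile scaling (0.92), without parental DMSO replicate 2 or without DAC-resistant DMSO replicate 1. SPC24 was at 14.5 and 14.96 FPKM and at 28.5 and 30.3 (0.95, SE 0.043, adjusted p = 7.4e-06). NUF2 (ENSG00000143228, chr1:163266576-163355764), which pairs with NDC80 at the outer kinetochore, was at 17.03 and 17.2 FPKM and at 30.9 and 29.6 (0.78, SE 0.057, adjusted p = 5.1e-05). The 4 subunits of the NDC80 complex did not move alike: SPC25 was at 8.28 and 8.67 FPKM and at 10.7 and 8.42 (0.15, SE 0.098, adjusted p = 0.25), and NDC80 itself was lower, at 16.7 and 17.5 and at 15.4 and 15.6 (-0.13, SE 0.041, adjusted p = 0.027). The call of NDC80 was lost on the TPM scale (-0.07, adjusted p = 0.21) and without parental DMSO replicate 2 or either DAC-resistant DMSO library (adjusted p between 0.076 and 0.14).

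All 4 chromosomal passenger genes were higher, with CDCA8 at 0.50, INCENP at 0.34 and AURKB at 0.18 on the log2 scale beside BIRC5. Among regulators of CDK1, CDC25B (0.68) and CCNA2 (0.52) were higher, and CDK1 itself was at 29.6 and 28.2 FPKM and at 34.7 and 33.1 (0.22, SE 0.047, adjusted p = 0.0063). TOP2A and MKI67 were each higher by 0.47, and PLK1 by 0.44 (11.8 and 11.3 FPKM against 16.2 and 15.8, adjusted p = 0.00031). KIF20A (0.58), CENPA (0.48), ANLN (0.46), PRC1 (0.46), KIF2C (0.30), MAD2L1 (0.43), TPX2 (0.33), BUB1B (0.22) and BUB1 (0.22) were higher too. The smaller rises of CCNB1 (0.16), AURKA (0.17), AURKB, KIF11 (0.21) and CDC20 (0.11) lost the call under quantile normalization and upper-quartile scaling, that of CDK1 lost it under quantile normalization (0.11), and that of CDC20 turned to -0.001 there.

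The lower members included the transcription factor of the set. HMMR was at 31.5 and 30.6 FPKM in parental and at 18.2 and 18.4 in DAC-resistant cells (log2 fold change -0.73, SE 0.037, adjusted p = 1.1e-05). CDC25C was at 7.97 and 8.14 FPKM and at 5.501 and 5.13 (-0.52, SE 0.099, adjusted p = 0.0041). FOXM1 was at 18.3 and 19.6 FPKM and at 13.6 and 12.4 (-0.51, SE 0.060, adjusted p = 0.00045). Both DAC-resistant libraries lay below both parental ones in each. BUB3 (-0.25), CENPF (-0.21), PTTG1 (-0.19) and NDC80 made up the 7, of which all but PTTG1 and NDC80 kept the call under the alternatives run and without each library. CCNB2, at 21.5 and 21.3 FPKM and at 21.2 and 21.8, and TTK, at 16.8 and 15.2 and at 15.2 and 17.1, had log2 fold changes of 0.00 and 0.01. UBE2C (0.24), SPC25, KIF23 (0.08), CENPE (0.06), ESPL1 (0.06), ECT2 (0.00), KIF4A (-0.02) and NUSAP1 (-0.11) did not pass either.

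**Figure D4:**
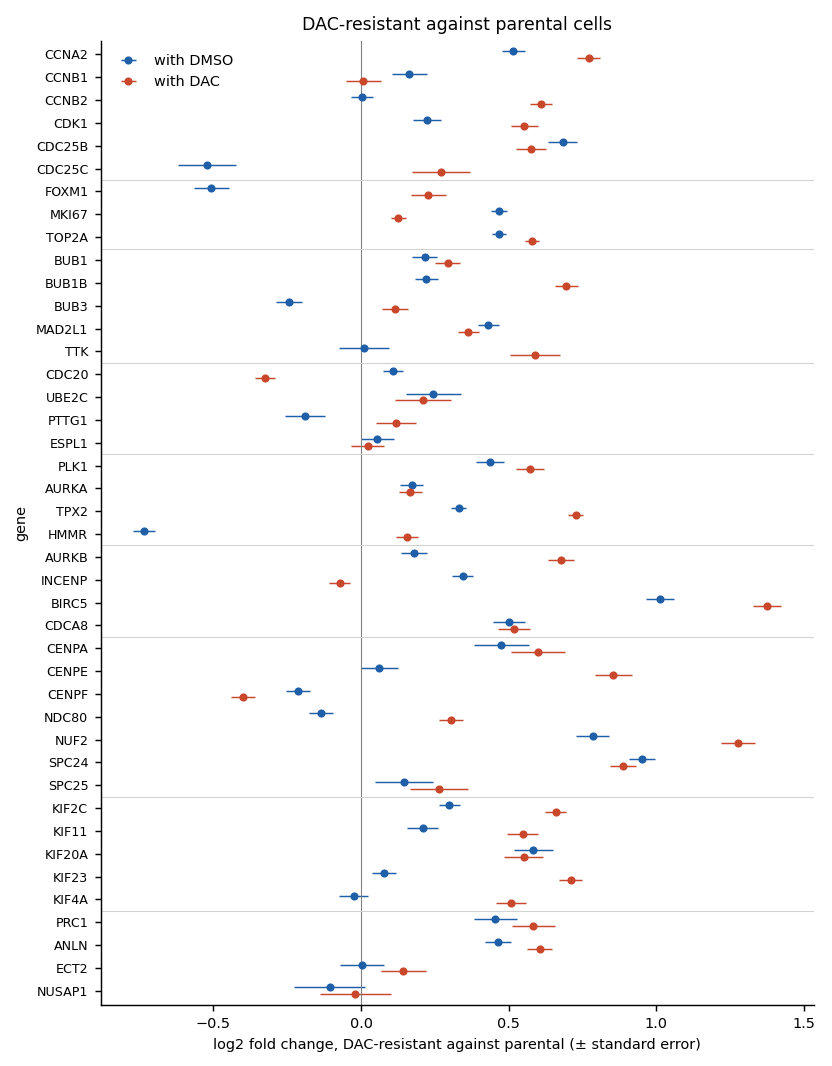
Log2 fold change of DAC-resistant against parental cells (x axis, bars of 1 standard error) for each of the 42 genes (y axis, grouped by role), with DMSO in blue and with DAC in red. With DMSO the points run from -0.73 (HMMR) to 1.01 (BIRC5), and with DAC from -0.40 (CENPF) to 1.38 (BIRC5).

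With DAC in both lines, 31 members were higher in DAC-resistant cells and 2 were lower at an adjusted p under 0.05, against 32.0% of all genes higher and 35.1% lower. The median log2 fold change was 0.53, beside -0.03 for all genes. BIRC5 and NUF2 passed the size rule, against 5.29% of all genes higher and 9.17% lower. The libraries did not overlap for 36 members higher and 3 lower, where 39.6% and 43.4% of all genes did not. Both DAC groups of this comparison also enter the DAC effects above.

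BIRC5 was at 19.9 and 18.2 FPKM in parental DAC cells and at 49.6 and 52.4 in DAC-resistant DAC cells, 168% higher (log2 fold change 1.38, SE 0.049, adjusted p = 1.3e-06). NUF2 was at 13.6 and 12.04 FPKM and at 32.0 and 33.0, 153% higher (1.28, SE 0.057, adjusted p = 3.5e-06). SPC24 was at 12.3 and 11.8 FPKM and at 22.8 and 23.4 (0.89, SE 0.043, adjusted p = 5.2e-06). CENPE, whose difference between the lines did not pass with DMSO (8.81 and 7.79 against 8.61 and 8.77 FPKM, log2 fold change 0.06), stood at 5.42 and 5.09 against 10.1 and 10.5 with DAC (0.85, SE 0.063, adjusted p = 3.3e-05). All 5 mitotic kinesins were higher, by 0.51 (KIF4A) to 0.71 (KIF23), as were 5 of the 6 cyclins, CDK1 and CDC25 phosphatases, the exception being CCNB1 at 0.01. In the checkpoint BUB1B (0.69), TTK (0.59) and MAD2L1 (0.36) were higher, and so were TPX2 (0.73), CENPA (0.60), CDCA8 (0.52), NDC80 (0.30), ANLN (0.60) and PRC1 (0.58). BUB3 (0.12), UBE2C (0.21), PTTG1 (0.12), ESPL1 (0.02), INCENP (-0.07), SPC25 (0.26), ECT2 (0.14) and NUSAP1 (-0.02) did not pass.

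Among the remaining always-named members, TOP2A was higher by 0.58 on the log2 scale, AURKB by 0.68, PLK1 by 0.57, CDK1 by 0.55, BUB1 by 0.29, FOXM1 by 0.23, AURKA by 0.17 and MKI67 by 0.13. FOXM1 and HMMR, lower in DAC-resistant cells with DMSO, were higher with DAC, at 10.9 and 11.4 against 13.7 and 12.9 FPKM for FOXM1 and 20.8 and 21.1 against 24.2 and 22.7 for HMMR. The higher call with DAC was kept for HMMR throughout, whereas FOXM1 lost it without parental DAC replicate 1 (0.20, adjusted p = 0.075) and without DAC-resistant DAC replicate 1 (0.19, adjusted p = 0.074). CDC25C lost it with no filter on low values (adjusted p = 0.095), when only the groups compared were fitted (0.10), and without parental DAC replicate 1 or either DAC-resistant DAC library, and MKI67 lost it under quantile normalization (0.06). The 2 lower members were CENPF, at 30.1 and 29.7 against 21.9 and 23.0 FPKM (-0.40, SE 0.041, adjusted p = 0.00016), and CDC20, at 100.5 and 102.9 against 81.4 and 80.6 (-0.33, SE 0.034, adjusted p = 0.00018).

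**Figure D5:**
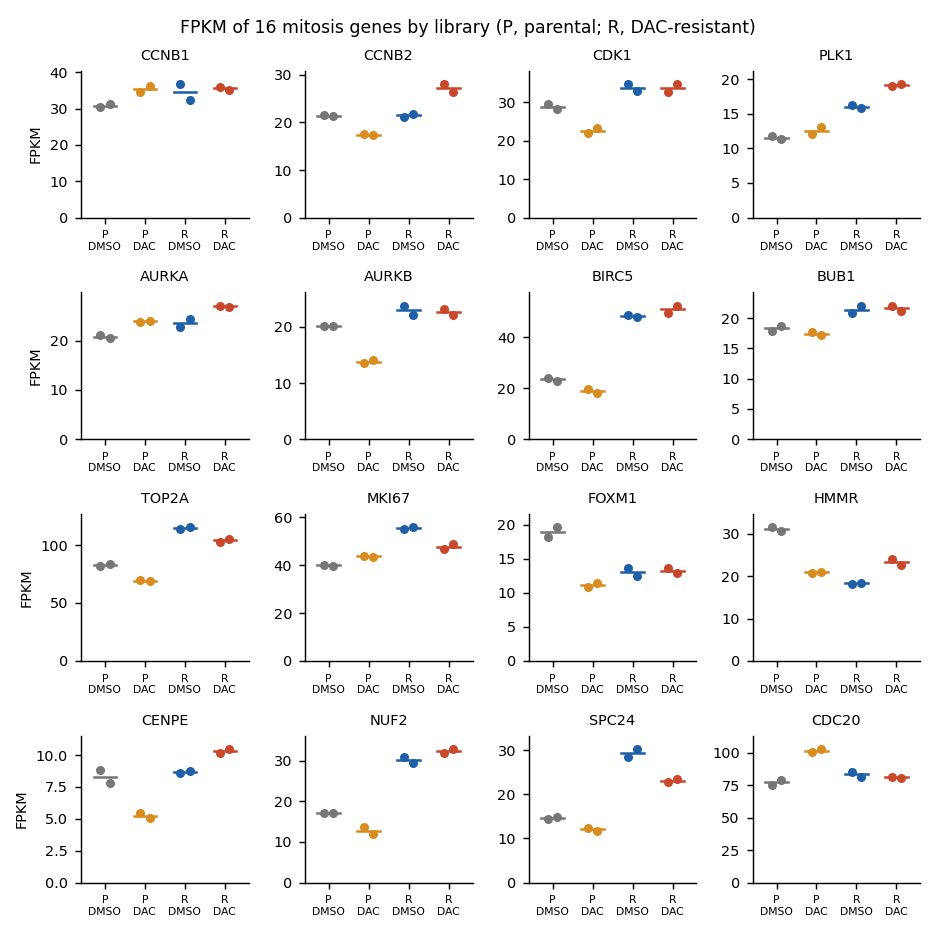
FPKM (y axis, from 0) of 16 mitosis genes in each library, with parental cells (P) and DAC-resistant cells (R) given DMSO or DAC along the x axis; points are libraries and lines are means of 2. BIRC5, NUF2 and SPC24 are higher in all 4 DAC-resistant libraries than in all 4 parental ones, HMMR and FOXM1 are highest in parental DMSO cells, and CDC20 is highest in parental DAC cells.

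Across the 4 groups the order of level was alike at its top and bottom, whereas other members changed place. With DMSO, HMMR had means of 31.1 FPKM in parental and 18.3 in DAC-resistant cells, and SPC24 of 14.7 and 29.4. TOP2A was the highest in 3 groups, at means of 82.6 ± 1.104 FPKM (SD, n = 2) in parental DMSO, 114 ± 1.25 in DAC-resistant DMSO and 104 ± 1.73 in DAC-resistant DAC cells, whereas CDC20 was the highest in parental DAC cells, at 102 ± 1.71 against 69.4 ± 0.304 for TOP2A. TPX2 was the third in each group, between means of 46.3 and 77.2 FPKM. NUSAP1 was the lowest in every group.

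A second list of 51 mitosis genes outside the 42 (condensins, centralspindlin, further kinesins and kinetochore parts) was counted beside them. It too was chosen with earlier results of these data known, and no difference between the lists was tested. With DAC in parental cells 35 fell (68.6%, against 24.1% of all genes) and 1 rose (1.96%, against 33.6%), with a median log2 fold change of -0.33. The kinesin KIF15 (-0.86) and the condensin subunit NCAPD2 (-0.71) fell most, and the kinetochore adaptor KNSTRN rose by 0.37. With DAC in DAC-resistant cells 4 rose (7.84%, against 5.88%) and 5 fell (9.8%, against 5.35%), with a median of -0.05, led by SKA1 (0.46) and BORA (0.40) and by KIF18B (-0.44) and CENPM (-0.35). Without drug 24 were higher in DAC-resistant cells (47.1%, against 31.3%) and 4 lower (7.84%, against 26.2%), with a median of 0.10, PIMREG at 1.39, KIFC1 at 0.77 and KNTC1 at -0.51, and with DAC 39 were higher (76.5%, against 32.0%) and 3 lower (5.88%, against 35.1%). The DAC effects differed for 24 of them. For 23 the effect was higher in DAC-resistant cells (45.1%, against 20.9%), led by SKA1 (1.15), a microtubule-binding kinetochore protein. For 1, KIFC1 (-0.16), it was lower (1.96%, against 28.4%).

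Of 17 subunits and partners of the APC/C, which ends mitosis, 5 rose and 4 fell with DAC in parental cells (29.4% and 23.5%), shares close to the 33.6% and 24.1% of all genes. ANAPC16, a small subunit, was at a mean of 27.4 FPKM with DMSO and 13.1 with DAC (log2 fold change -1.01, SE 0.030, limma adjusted p = 1.1e-06), and UBE2S, the ubiquitin-chain enzyme of the APC/C, rose by 0.44. In DAC-resistant cells 1 rose and 1 fell (5.88% each, against 5.88% and 5.35%). ANAPC16 was at 13.2 FPKM with DMSO and rose to 16.99 with DAC (0.34, adjusted p = 0.0022), and ANAPC2, a cullin, fell by 0.29. The DAC effects differed upward in DAC-resistant cells for 2 of the 17 (11.8%, against 20.9%), ANAPC16 by 1.35 and CDC23 by 0.30, and downward for 4 (23.5%, against 28.4%), led by ANAPC2 (-0.69) and UBE2S (-0.48). Without drug 7 were higher in DAC-resistant cells (41.2%, against 31.3%) and 1 was lower (5.88%, against 26.2%), with UBE2S at 0.84 and ANAPC16 at -1.001. With DAC the counts were 9 and 2 (52.9% and 11.8%, against 32.0% and 35.1%).

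Among 18 regulators of the DREAM, MuvB and E2F complexes, 3 rose and 9 fell with DAC in parental cells (16.7% and 50%, against 33.6% and 24.1% of all genes), led by MYBL2 (-0.62), the B-Myb factor that acts with FOXM1, and E2F1 (-0.42). In DAC-resistant cells 1 rose (RB1, 0.25) and 4 fell, with E2F1 at -0.39 (5.56% and 22.2%, against 5.88% and 5.35%). Without drug 6 were higher and 5 lower in DAC-resistant cells (33.3% and 27.8%), shares close to the 31.3% and 26.2% of all genes. E2F3 stood at 1.07 and LIN54, a MuvB subunit that binds the CHR, at 0.68, while the retinoblastoma gene RB1 stood at -0.88 and E2F1 at -0.56. RB1 had means of 28.3 FPKM in parental and 14.9 in DAC-resistant DMSO cells. With DAC the counts were 6 and 6, again near the shares of all genes (33.3% each, against 32.0% and 35.1%). The DAC effects differed upward in DAC-resistant cells for 4 and downward for 1 (22.2% and 5.56%, against 20.9% and 28.4%).

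Of 13 genes listed as brakes on the cell cycle, 11 passed the filter. They include CDC25A, a phosphatase that opposes the brakes. With DAC in parental cells 5 rose and 3 fell (45.5% and 27.3%, against 33.6% and 24.1% of all genes), with CDC25A (0.20) among the rises. The CDK inhibitor CDKN1C went from a mean of 1.07 to 9.39 FPKM (log2 fold change 2.33, SE 0.088, adjusted p = 3.0e-06) and BTG2 from 29.6 to 75.2 (1.32), while PKMYT1, which inhibits CDK1, fell by 0.66 and CCNG2 by 0.47. In DAC-resistant cells CDKN1C was at 2.85 FPKM with and without DAC, and 1 gene of the list rose (GADD45A, 0.44) and 2 fell (9.09% and 18.2%, against 5.88% and 5.35%), PKMYT1 (-0.38) and CDC25A (-0.21). Without drug 5 were higher and 4 lower in DAC-resistant cells (45.5% and 36.4%, against 31.3% and 26.2%), among them GADD45A (-1.10), CCNG2 (-0.86), CDKN1C (0.90) and CDC25A (0.73). With DAC 3 were higher, CDC25A (0.32) among them, and 7 lower (27.3% and 63.6%, against 32.0% and 35.1%). The DAC effects differed upward in DAC-resistant cells for 4 and downward for 4 (36.4% each, against 20.9% and 28.4%).

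Of 22 G1 and S phase genes 5 rose and 13 fell with DAC in parental cells (22.7% and 59.1%, against 33.6% and 24.1% of all genes). The licensing factor CDT1 fell by 1.15 and thymidine kinase TK1 by 0.79, and the G1 cyclins CCND1 and CCND3 rose by 1.48 and 0.90. In DAC-resistant cells 1 rose and 12 fell (4.55% and 54.5%, against 5.88% and 5.35%), led by the helicase subunits MCM4 (-0.42) and MCM3 (-0.37). Without drug 13 were higher and 3 lower in DAC-resistant cells (59.1% and 13.6%, against 31.3% and 26.2%), with GMNN at 1.14 and TYMS at -1.01. With DAC 10 were higher and 5 lower (45.5% and 22.7%, against 32.0% and 35.1%). The DAC effects differed upward in DAC-resistant cells for 4 and downward for 9 (18.2% and 40.9%, against 20.9% and 28.4%).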

How the data were processed

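Per the submitters' processing notes the authors trimmed reads with cutadapt 1.9.1, aligned them to hg38 with HISAT2 2.1.0 and SAMtools 1.6, and counted them with HTSeq 0.13.5. The strand setting is not given in the sources used here. The deposited values are FPKM made by the authors, multiplied by 1000, and were divided by 1000 again. Because log2(FPKM + 1) was used, fold changes of low genes are understated. Percent changes of a gene are of its mean FPKM, without the added 1.

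The 14899 genes that reached 1 FPKM in 2 or more libraries entered 1 model of 4 group means with a variance trend (limma 3.58.1, R 4.3.3), and p-values were adjusted by Benjamini-Hochberg over all of them. A call needed an adjusted p under 0.05. A size rule (log2 fold change of 1 or more with an unadjusted p no higher than 0.01) followed the study's thresholds. The fit was tested on simulated data.

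For 34894 of 39592 genes above 0, all values were whole reads within 0.01 with the exon lengths of GENCODE v44, and 86.5% to 87.0% of values per library came out whole. The members CDK1 and CENPF did not.

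The members and gene lists were chosen with earlier results of these data known. Values in every library were given for CCNB1, CDK1, PLK1, AURKA, AURKB, BUB1, BIRC5, TOP2A, MKI67 and FOXM1 and, for each comparison, for up to 3 called members in each direction, by size, whose libraries did not overlap. Genes of other lists were named mostly from the 2 largest called rises and falls of a list, not all of which are given, and the choice among them and other genes added were made after their values were seen. Same-numbered replicates did not deviate together (r between -0.0218 and 0.0198), so no pairing entered the fit. Motifs were read from RefSeq windows. Alternatives were another pseudocount and filter, TPM, quantile and upper-quartile scaling, a replicate block, only the groups compared, voom, and leaving out each library.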

Additional observations from a re-analysis of the deposited data

Results flagged for a closer look

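These 25 members were picked out because the test of the difference between the DAC effects (resistant minus parental, log2 scale) had an adjusted p under 0.05 in limma. The effect was lower in DAC-resistant cells for CDC20 (-0.43), INCENP (-0.42), MKI67 (-0.34) and CENPF (-0.19). It was higher for HMMR (0.89), CENPE (0.79), CDC25C (0.79), FOXM1 (0.74), KIF23 (0.63), CCNB2 (0.61), TTK (0.58), KIF4A (0.53), AURKB (0.50), NUF2 (0.49), BUB1B (0.47), NDC80 (0.44), TPX2 (0.40), BIRC5 (0.36), KIF2C (0.36), BUB3 (0.36), KIF11 (0.34), CDK1 (0.33), PTTG1 (0.31), CCNA2 (0.26) and TOP2A (0.11). Of these, 19 of the 21 higher differences and 3 of the 4 lower ones kept the call under the alternatives run for them and without each library (CDK1 was not fitted with voom, and no member was fitted with only the groups compared). PTTG1, TOP2A and CENPF did not. Groups of 2 libraries are too small to test a single library for standing apart.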

How the results depend on the processing

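Direction was compared only where a member was called in the main fit or in the alternative, so uncalled members could change sign unseen. Under the alternatives that keep all libraries, 1 such result reversed (CDC20 in DAC-resistant against parental cells with DMSO, -0.001 under quantile normalization). Of the other results of single members, 1724 kept their side of the threshold, 63 lost the call and 40 gained it. Without single libraries 913 kept it, 84 lost it and 11 gained it.

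With DAC in parental cells, 3 members rose under quantile normalization and 3 under upper-quartile scaling, and the median log2 fold change was -0.36 and -0.37. With DAC in DAC-resistant cells, 2 rose with no filter, 2 rose and 0 fell when only the groups compared were fitted, and without single libraries 2 to 3 rose and 2 to 4 fell. For DAC-resistant against parental cells with DMSO, the size rule gave 2 members on the TPM scale, 0 under quantile normalization, 0 under upper-quartile scaling and 0 to 1 without single libraries, and the median was 0.28, 0.11 and 0.12 under these scalings. With DAC, the median was 0.65 on the TPM scale, and voom left 1 member lower, since CENPF was not among the recovered reads. The median difference between the DAC effects was 0.18 with a pseudocount of 0.1, 0.20 with a mean of at least 5 FPKM, 0.19 on the TPM scale, 0.26 under quantile normalization, 0.24 under upper-quartile scaling, 0.19 with voom and 0.16 to 0.25 without single libraries. Where no reason is given, the cause was not tested.

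Replicates share only a number. With the replicate block, 6 members rose and 27 fell in parental cells given DAC, 5 rose and 5 fell in DAC-resistant cells, 24 were higher and 6 lower without drug, 31 and 2 with DAC, and the DAC effects differed upward for 20 and downward for 3.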
